A study of Mus musculus with 2 samples.

Results

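The 10 genes described here carry the bile acid pathway of the hepatocyte, and they were found by symbol among the 32285 genes counted in 2 snRNA-seq libraries of mouse liver. They are 4 enzymes of synthesis (*Cyp7a1*, *Cyp8b1*, *Cyp27a1* and *Cyp7b1*), 3 transporters (*Slc10a1*, *Slco1b2* and *Abcb11*), the nuclear receptors *Nr1h4* and *Nr0b2*, and the growth factor receptor *Fgfr4*. All 10 were counted in hepatocytes of both libraries, from 558 UMIs for *Cyp7b1* in one library to 94028 UMIs for *Slco1b2* in the other, and all 10 passed the minimum of 200 UMIs.

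Bile acids are made from cholesterol in the hepatocyte. The classic route starts with CYP7A1, its rate-limiting enzyme, and the sterol 12-alpha-hydroxylase CYP8B1 directs the product toward cholic acid. The alternative route runs through the mitochondrial sterol hydroxylase CYP27A1 and the oxysterol hydroxylase CYP7B1. NTCP (*Slc10a1*) and OATP1B2 (*Slco1b2*) take bile acids up from portal blood, and the bile salt export pump BSEP (*Abcb11*) secretes them into bile. The bile acid receptor FXR (*Nr1h4*) induces SHP (*Nr0b2*), a repressor of synthesis genes, and FGFR4 receives the intestinal hormone FGF15, which restrains synthesis as well.

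Both libraries came from livers of male C57BL6/J mice that entered a MASH diet, also labelled AMYLIN liver NASH diet, when 10 to 12 weeks old and ate it for 5 months. Fat gave 40% and fructose 20% of its calories, and it held 2% cholesterol. The Flox library was from *Themis* flox/flox mice (its title reads WT) and the HKO library from *Themis* Alb-Cre mice, in which the albumin promoter drives Cre in hepatocytes. By the study's crossing scheme both genotypes carried floxed *Themis*, and each library held sorted nuclei from the pooled frozen livers of several mice. With 1 library per genotype no difference could be tested. The intervals given are 95% intervals of counting error only, and genotype cannot be told apart from pool, library or depth.

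The library labelled Flox held 9363 barcodes and 58171337 UMIs, and the library labelled HKO 10748 barcodes and 40475938 UMIs, with 27 barcode sequences in both. Cell types were told by marker UMIs, and each type's name stands for a resemblance. Hepatocytes numbered 5878 in Flox and 4522 in HKO, with medians of 7425.5 and 5795 UMIs. The 8 hepatocyte markers, by which these nuclei were called, were all present and summed to 9073 and 6579 CPM. CPM are a gene's UMIs per 1000000 UMIs of the summed nuclei. *Themis* itself was not lower in hepatocytes of the library labelled HKO (243 CPM) than in the library labelled Flox (163 CPM), a ratio of 1.5 (1.45–1.55), and whether the counted 3′ reads lie in the deleted part was not tested. The directions below are therefore between libraries as labelled. Macrophage nuclei made up 5.82% of the kept nuclei in Flox and 12.9% in HKO, and hepatic stellate cell (HSC) nuclei 9.47% and 11.7%. *Alb*, the albumin gene, reached 61.7% of its hepatocyte CPM in endothelial nuclei of Flox and 49.9% in those of HKO. It is used below as a rough measure of free hepatocyte RNA, since such shares differed between hepatocyte genes. In Flox cholangiocyte nuclei *Alb* reached 107% of its hepatocyte CPM, *Cyp7a1* 0.790% and *Slco1b2* 5.73%.

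In hepatocytes the gene of the rate-limiting enzyme was higher in HKO, while the other 3 synthesis genes were lower. *Cyp7a1* stood at 568 CPM in Flox and 1113 CPM in HKO. *Cyp8b1* stood at 61.5 and 28.2 CPM, *Cyp27a1* at 541 and 420 CPM, and *Cyp7b1* at 50.4 and 20.2 CPM. Of the 10 genes, 1 was at least 1.5-fold higher in HKO and 4 were at least 1.5-fold lower. Of the 11236 genes with at least 200 UMIs, 6.59% were at least 1.5-fold higher and 8.20% at least 1.5-fold lower. The median log2 ratio of the 10 genes was −0.32, beside −0.02 for all genes.

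**Figure D1:**
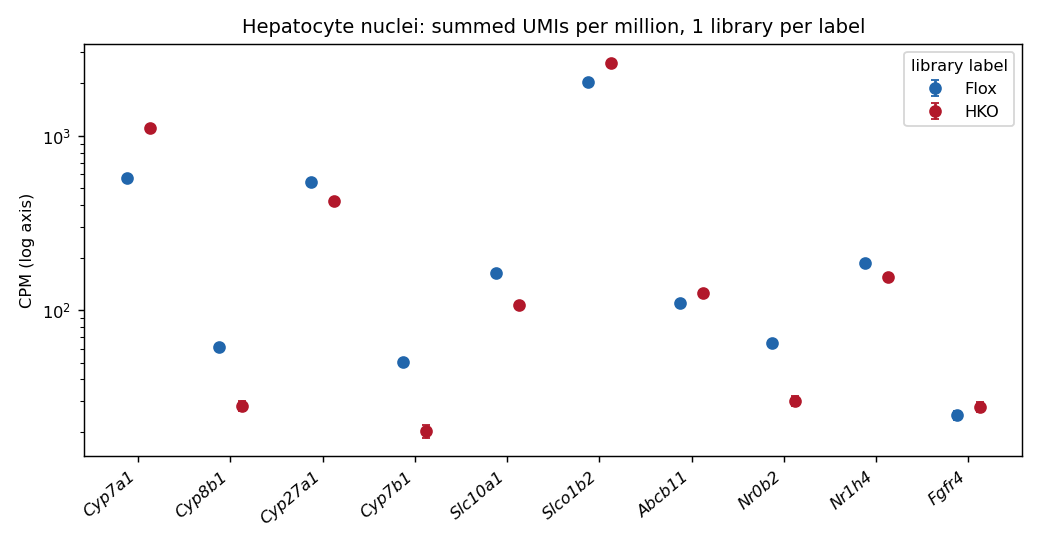
CPM of the 10 genes in summed hepatocyte nuclei on a log axis, with exact Poisson 95% intervals (mostly smaller than the points) and 1 library per label. *Cyp7a1* lies at 568 CPM in Flox and 1113 CPM in HKO, and *Nr0b2* at 64.7 CPM in Flox and 30.1 CPM in HKO.

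Among the enzymes, *Cyp7a1* (chr4:6265612-6275633, minus strand, GRCm38 with GENCODE vM21) had a ratio of HKO over Flox of 1.96 (1.93–1.99), from 26218 UMIs in Flox and 30747 UMIs in HKO. *Cyp8b1* (chr9:121914356-121916305, minus strand) had a ratio of 0.458 (0.423–0.496), from 2836 and 778 UMIs. *Cyp7b1* (chr3:18071950-18243338, minus strand) had the lowest ratio of the 10 genes, 0.401 (0.365–0.440), from 2324 and 558 UMIs. *Cyp27a1* (chr1:74713574-74737892, plus strand) had a ratio of 0.775 (0.758–0.792), short of 1.5-fold. The gene that opens the classic route and the genes of the later and alternative steps thus lay on opposite sides of a ratio of 1.

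Among the transporters, the sodium-dependent importer *Slc10a1* (chr12:80953183-80968705, minus strand) was at 163 CPM in Flox and 107 CPM in HKO, 1.52-fold lower (1.46–1.59). *Slco1b2* (chr6:141629518-141686646, plus strand), the sodium-independent importer, was at 2038 CPM in Flox and 2601 CPM in HKO, a ratio of 1.28 (1.26–1.29). *Abcb11* (chr2:69238282-69342616, minus strand) was at 110 CPM in Flox and 126 CPM in HKO, a ratio of 1.14 (1.10–1.19). The importers differed in direction, and the exporter differed by less than 1.5-fold. *Slc10a1* lay close to that limit and no longer reached it when free RNA was subtracted (log2 ratio −0.53).

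Among the sensors, *Nr0b2* (chr4:133553376-133556536, plus strand) was at 64.7 CPM in Flox and 30.1 CPM in HKO, a ratio of 0.465 (0.430–0.502). *Nr1h4* (chr10:89454234-89533585, minus strand) was at 186 CPM in Flox and 155 CPM in HKO, a ratio of 0.830 (0.80–0.861). *Fgfr4* (chr13:55152640-55168759, plus strand) was at 25 CPM in Flox and 27.8 CPM in HKO, a ratio of 1.11 (1.02–1.22) that turned below 1 among nuclei of 5000 to 8000 UMIs (log2 ratio −0.19). The SHP transcript was lower by 2.15-fold (1.99–2.33), and both receptors differed by less than 1.5-fold. Within the same depth range of 5000 to 8000 UMIs *Cyp7a1* had a log2 ratio of 0.95, *Cyp8b1* −1.02, *Cyp7b1* −1.27 and *Nr0b2* −1.05, so these 4 differences were also present among nuclei of like depth. The marker lists of 10 other cell types summed to 0.260 to 39.8 CPM in Flox hepatocytes and 0.217 to 57.9 CPM in HKO hepatocytes, the mesothelial list being the lowest and the cholangiocyte list the highest. The list of proliferation genes summed to 5.68 and 20.9 CPM. The part of such RNA in the ratios was not tested.

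RefSeq promoter windows (GRCm38.p6, 250 bases before to 50 after an annotated start) were found for 8 of the 10 genes. *Cyp7a1* and *Cyp7b1*, with the highest and lowest ratio of HKO over Flox, had none. The windows found were searched on both strands for 3 motifs chosen with the sequences known. These were an inverted repeat of the FXR type (GGNCA and TGACC with 1 base between them), CAAGGNCA of the LRH-1 type, and CAAAGTCCA of the HNF4 type. Of 32851 windows of 300 bases, 0.237% held the inverted repeat, 6.71% the LRH-1 type and 0.475% the HNF4 type. Matches were found for 4 genes, whose windows are shown. The windows of *Cyp27a1*, *Fgfr4*, *Nr1h4* and *Slc10a1* held no match, and of these *Slc10a1* was also at least 1.5-fold lower in HKO. The *Nr1h4* window (chr10:89506609-89506908) and a further *Slc10a1* window (chr12:80968030-80968329) lay inside the genes as given above. For *Nr1h4* the outer end of the gene, at 89533585, was thus not searched. Capitals mark the matches.
Abcb11: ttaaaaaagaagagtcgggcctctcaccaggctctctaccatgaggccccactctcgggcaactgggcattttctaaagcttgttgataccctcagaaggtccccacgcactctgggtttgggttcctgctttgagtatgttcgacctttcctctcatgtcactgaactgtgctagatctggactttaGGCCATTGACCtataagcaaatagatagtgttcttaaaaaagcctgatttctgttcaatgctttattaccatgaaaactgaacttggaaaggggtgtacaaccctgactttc
Slco1b2: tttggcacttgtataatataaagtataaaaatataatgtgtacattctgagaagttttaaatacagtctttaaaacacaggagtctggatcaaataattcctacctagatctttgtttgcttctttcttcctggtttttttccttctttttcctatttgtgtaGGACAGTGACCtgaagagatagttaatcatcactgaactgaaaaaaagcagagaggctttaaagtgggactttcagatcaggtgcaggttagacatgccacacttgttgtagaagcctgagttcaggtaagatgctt
Cyp8b1: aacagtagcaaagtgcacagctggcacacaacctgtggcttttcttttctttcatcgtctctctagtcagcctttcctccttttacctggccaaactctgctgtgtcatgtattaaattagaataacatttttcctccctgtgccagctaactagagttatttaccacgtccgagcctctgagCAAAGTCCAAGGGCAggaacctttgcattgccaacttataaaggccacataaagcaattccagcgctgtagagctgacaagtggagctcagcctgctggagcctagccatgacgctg
Nr0b2: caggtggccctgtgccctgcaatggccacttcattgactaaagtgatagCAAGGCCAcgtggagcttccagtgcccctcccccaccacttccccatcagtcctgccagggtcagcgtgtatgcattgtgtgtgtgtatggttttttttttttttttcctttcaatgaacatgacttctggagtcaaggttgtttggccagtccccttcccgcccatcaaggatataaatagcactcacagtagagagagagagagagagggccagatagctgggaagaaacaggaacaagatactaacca

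The *Abcb11* window (chr2:69342567-69342866, minus strand) held the inverted repeat as GGCCATTGACC at positions −62 to −52 from the start. The *Slco1b2* window (chr6:141629268-141629567, plus strand) held it as GGACAGTGACC at positions −87 to −77. Both genes were higher in HKO by less than 1.5-fold. In the *Cyp8b1* window (chr9:121916256-121916555, minus strand) the HNF4 type at −67 to −59 overlapped the LRH-1 type at −60 to −53, so that their capitals form 1 run. The *Nr0b2* window (chr4:133553126-133553425, plus strand) held the LRH-1 type as CAAGGCCA at −201 to −194. Both of these genes were at least 1.5-fold lower in HKO. A match describes the letters of a window and does not show that a factor binds there. Whether motif and direction go together was not tested.

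Hepatocytes were next split by zone, zone 3 being the nuclei around the central vein, with at least 0.1% of their UMIs from *Glul* and *Slc1a2*. This gave 1086 zone 3 nuclei in Flox (18.5% of hepatocytes) and 758 in HKO (16.8%), with a median depth of 6379.5 UMIs against 7619.5 for other hepatocytes in Flox and 4939 against 5941.5 in HKO. In Flox 3 of the 10 genes were at least 1.5-fold higher in zone 3 and 1 was at least 1.5-fold lower, where 4.03% and 5.54% of 10484 genes were. In HKO 6 were higher and 0 lower by that measure, where 3.65% and 4.80% of 9506 genes were.

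*Cyp7a1* was at 458 CPM outside zone 3 and 1180 CPM within it in Flox, a ratio of 2.58 (2.51–2.64). In HKO it was at 985 and 1876 CPM, a ratio of 1.90 (1.86–1.96). The HKO level outside zone 3 thus stood below the Flox level within zone 3. The ratio of HKO over Flox was 2.15 (2.11–2.19) outside zone 3 and 1.59 (1.54–1.64) within it.

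*Slco1b2* was at 1727 and 3760 CPM in Flox and at 2290 and 4444 CPM in HKO, zone ratios of 2.18 (2.15–2.21) and 1.94 (1.91–1.97). *Cyp27a1* was at 475 and 912 CPM in Flox and at 379 and 660 CPM in HKO, zone ratios of 1.92 (1.87–1.98) and 1.74 (1.67–1.82). With *Cyp7a1*, these were the 3 genes at least 1.5-fold higher in zone 3 in both libraries. All 3 had the smaller zone ratio in HKO.

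Over all UMIs, *Slc10a1*, *Cyp7b1* and *Nr0b2* reached 1.5-fold in zone 3 of HKO and not of Flox. *Slc10a1* had a zone ratio of 1.38 (1.30–1.46) in Flox and 1.76 (1.61–1.91) in HKO, and *Nr0b2* one of 1.24 (1.13–1.36) in Flox and 1.75 (1.48–2.06) in HKO. The ratio of HKO over Flox was 0.798 for *Slc10a1* and 0.613 for *Nr0b2* within zone 3, against 0.626 and 0.435 outside it. *Cyp7b1* had zone ratios of 1.39 (1.25–1.54) and 1.66 (1.35–2.04). In a random draw of 1000 UMIs per nucleus, the log2 zone ratio of *Slc10a1* was 0.38 in Flox and 0.33 in HKO. That of *Cyp7b1* was 0.62 and −0.13, and that of *Nr0b2* 0.42 and 0.59. The number of genes at least 1.5-fold higher in zone 3 was 4 in each library in that draw. In another draw, 17.5% of Flox zone 3 nuclei held a *Slc10a1* UMI against 13.9% of other hepatocytes. In HKO 14.4% did against 8.58%. For *Cyp7b1* these shares were 6.20% and 4.41% in Flox and 2.97% and 1.64% in HKO. The contrast between libraries thus depended on the draw for both genes. Whether zone ratios differed between the libraries was not tested.

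*Fgfr4* was lower around the central vein, at 26.8 CPM outside zone 3 and 14.9 CPM within it in Flox and at 29.1 and 20.4 CPM in HKO. Its zone ratios were 0.555 (0.450–0.679) and 0.699 (0.549–0.881). *Cyp8b1* had zone ratios of 0.814 (0.727–0.909) and 0.748 (0.591–0.936), the Flox value coming to a log2 ratio of 0.0045 after thinning. *Nr1h4* had zone ratios of 1.0 (0.946–1.07) and 0.936 (0.856–1.02), the latter turning above 1 in that draw of thinning (log2 ratio 0.14). In the other draw 13.1% of HKO zone 3 nuclei held an *Nr1h4* UMI against 13.6% of other hepatocytes. *Abcb11* had zone ratios of 1.03 (0.956–1.11) in Flox and 1.24 (1.13–1.35) in HKO. For FXR in both libraries and for the export pump in Flox, the split at zone 3 over all UMIs showed no difference beyond counting error. Over the alternative settings the log2 zone ratio of *Abcb11* ran from 0.042 to 0.29 in Flox and from 0.28 to 0.35 in HKO.

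**Figure D2:**
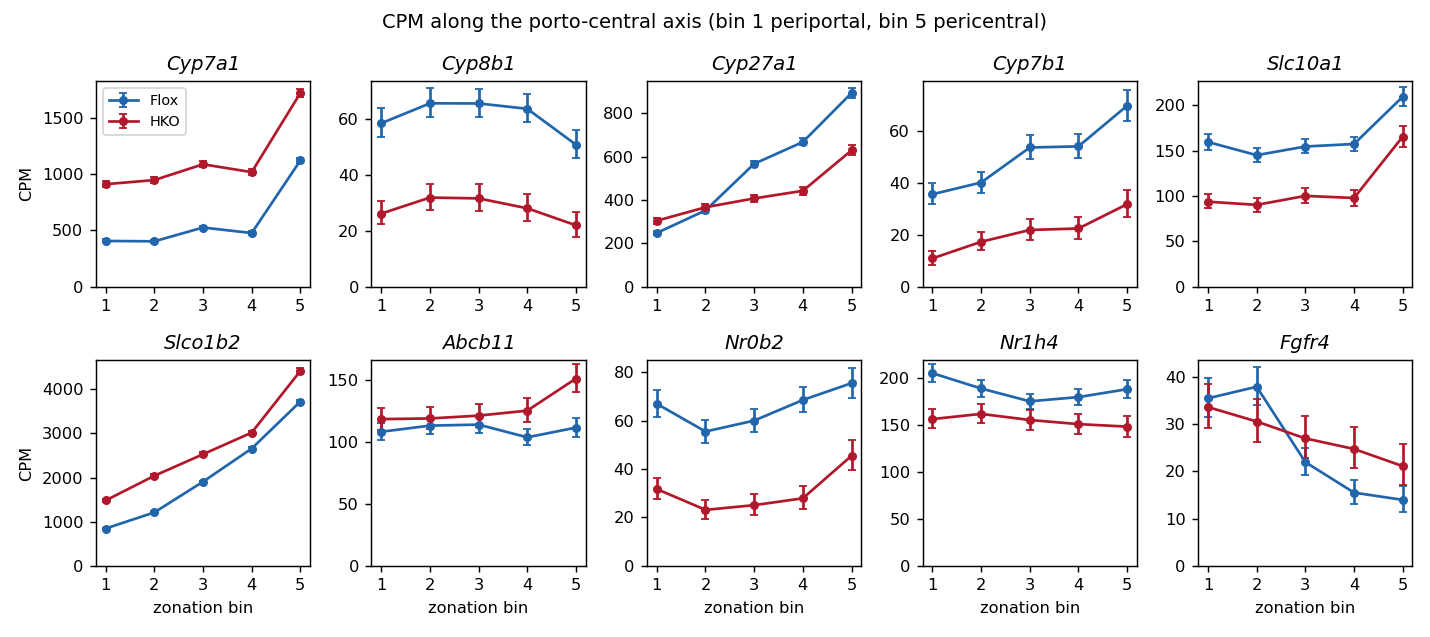
CPM of each gene in 5 bins of hepatocytes with equal numbers of nuclei per library, ranked by the UMI share of pericentral less periportal markers (bin 1 periportal, bin 5 pericentral), with exact Poisson 95% intervals. *Cyp7a1* lies at 403 to 526 CPM over Flox bins 1 to 4 and at 1123 CPM in bin 5, *Slco1b2* is higher at each step in both libraries, and the curves of *Cyp27a1* and *Fgfr4* cross.

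Ranking the hepatocytes of each library into 5 bins from periportal to pericentral separated graded from stepped profiles. *Slco1b2* went from 845 to 3723 CPM over the Flox bins and from 1481 to 4418 CPM over the HKO bins, higher at every step. *Cyp7a1* lay between 403 and 526 CPM in Flox bins 1 to 4 and at 1123 CPM in bin 5, and between 912 and 1089 CPM in HKO bins 1 to 4 and at 1723 CPM in bin 5. Its profile was thus a step at the pericentral end on a higher base in HKO. *Slc10a1* had the same shape, at 145 to 160 CPM over Flox bins 1 to 4 and 210 CPM in bin 5, and at 90.3 to 100.2 CPM and 166 CPM in HKO. *Nr1h4* in Flox was highest in bin 1, at 205 CPM (195–215), and lowest in bin 3, at 175 CPM (167–183), and in HKO it lay between 148 and 161 CPM with overlapping intervals. The bins rank nuclei within a library and do not mark equal distances from the vein.

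The ratio of HKO over Flox kept its side of 1 in all 5 bins for 8 of the 10 genes. *Cyp7a1* was higher in all 5, by 1.53 to 2.35-fold. *Cyp8b1*, *Cyp7b1*, *Slc10a1*, *Nr0b2* and *Nr1h4* were lower in all 5, and *Slco1b2* and *Abcb11* higher in all 5. *Slco1b2* had its largest ratio in bin 1, 1.75 (1.70–1.81), and a ratio of 1.19 (1.17–1.21) in bin 5, while *Abcb11* went the other way, from 1.09 (0.991–1.21) in bin 1 to 1.36 (1.23–1.5) in bin 5.

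*Cyp27a1* and *Fgfr4* had ratios on both sides of 1. *Cyp27a1* was at 248 CPM in Flox and 304 CPM in HKO in bin 1, a ratio of 1.23 (1.15–1.31), and at 894 CPM in Flox and 629 CPM in HKO in bin 5, a ratio of 0.704 (0.674–0.735). *Fgfr4* was at 37.9 CPM in Flox and 30.6 CPM in HKO in bin 2, a ratio of 0.806 (0.671–0.965), and at 15.5 CPM in Flox and 24.8 CPM in HKO in bin 4, a ratio of 1.60 (1.25–2.03). The gradients of both genes, which run in opposite directions, spanned a narrower range of CPM in HKO than in Flox. The pericentral markers other than *Glul* and *Slc1a2* summed to 185 CPM in bin 1 and 3854 CPM in bin 5 of Flox. In HKO they summed to 310 and 3039 CPM. The periportal markers summed to 8770 and 988 CPM in Flox and to 9259 and 1004 CPM in HKO. Both marker lists enter the ranking, so their spread over the bins is set by it and is no separate check. Whether the bins hold like zones in both libraries was not tested.

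**Figure D3:**
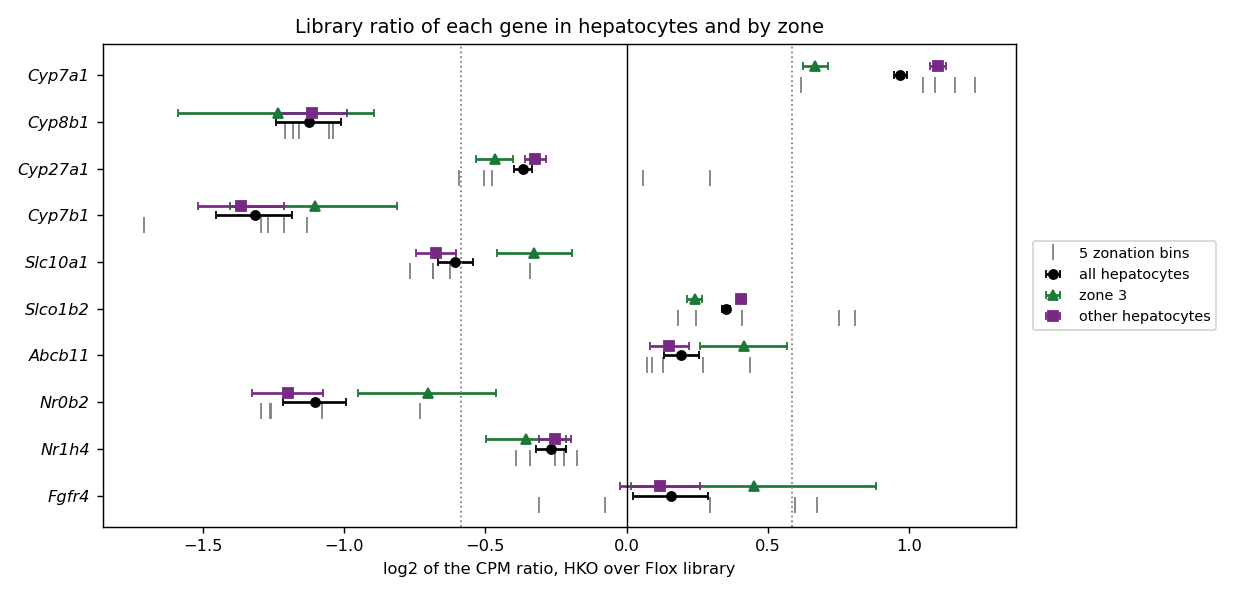
Log2 of the CPM ratio of HKO over Flox (no pseudocount) for all hepatocytes, zone 3 and other hepatocytes with exact 95% counting intervals, and for each of the 5 zonation bins as ticks. Dotted lines mark 1.5-fold, and only *Cyp27a1* and *Fgfr4* have ticks on both sides of 0.

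Counts per nucleus were compared after every hepatocyte of at least 3000 UMIs was thinned to 3000 UMIs, which left 5648 nuclei in Flox and 3947 in HKO. *Cyp7a1* was uneven among them. At least 1 *Cyp7a1* UMI was found in 44.4% of nuclei in Flox and 65.0% in HKO, with a mean of 1.78 and 3.36 UMIs and a variance 5.84 and 6.14 times the mean. The tenth of nuclei with the most *Cyp7a1* held 54.3% of its UMIs in Flox and 41.9% in HKO, so more nuclei carried the transcript in HKO and the share of the highest nuclei was smaller. *Slco1b2* was found in 93.7% and 97.0% of nuclei with variances 3.8 and 3.57 times the mean, and *Nr1h4* in 42.7% and 35.8% with variances 1.03 and 1.09 times the mean, close to counting noise. In endothelial nuclei thinned to 1000 UMIs, which should lack *Cyp7a1*, 2.4% (Flox) and 4.8% (HKO) held a *Cyp7a1* UMI, against 28.3% and 45.8% of hepatocytes thinned alike. Endothelial nuclei had medians of 1315 and 961.5 UMIs, far below the hepatocytes.

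**Figure D4:**
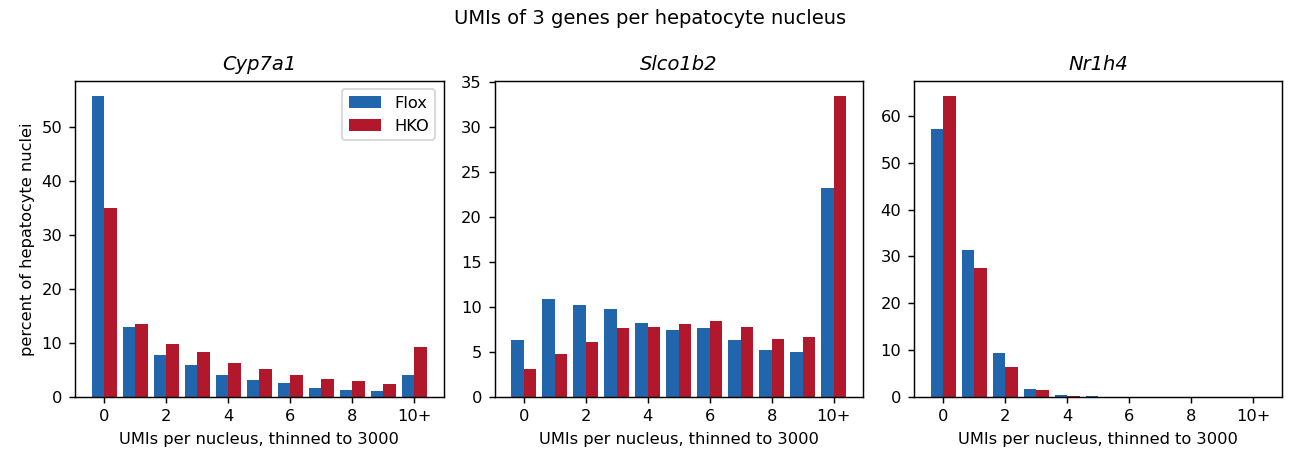
Share of hepatocyte nuclei with 0 to 9 and 10 or more UMIs of *Cyp7a1*, *Slco1b2* and *Nr1h4* after thinning to 3000 UMIs per nucleus, for both libraries. For *Cyp7a1* 55.6% of Flox and 35% of HKO nuclei held 0 UMIs, and 3.98% and 9.25% held 10 or more.

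Because SHP represses *Cyp7a1*, nuclei with and without an *Nr0b2* UMI were set side by side within each library. In Flox the 909 nuclei with *Nr0b2* held 1.79 *Cyp7a1* UMIs on average and the 4739 without it 1.78, a ratio of 1.0 (0.952–1.06). In HKO the 314 nuclei with *Nr0b2* held 3.72 and the 3633 without it 3.33, a ratio of 1.12 (1.05–1.19). Within zones the ratios were 1.09 (zone 3) and 0.888 (other) in Flox, and 0.939 and 1.10 in HKO. *Cyp8b1* gave 0.993 (0.838–1.17) in Flox and 1.33 (0.900–1.89) in HKO. Nuclei of 1 library are not replicates and *Nr0b2* was sparse, and the *Cyp7a1* ratio lay on both sides of 1 across zones and libraries. The intervals hold counting error alone. They are too narrow for *Cyp7a1*, whose variance among these nuclei was 5.84 (Flox) and 6.14 (HKO) times its mean.

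Outside the hepatocyte, *Nr1h4* and *Fgfr4* were each above their hepatocyte level in 1 other type. *Nr1h4* was at 308 CPM (281–337) in HSC nuclei of Flox and 253 CPM (230–278) in those of HKO, 1.65 (1.51–1.81) and 1.64 (1.48–1.81) times its hepatocyte level. The other 9 members reached at most 26.3% (Flox) and 37.3% (HKO) of their hepatocyte CPM in HSCs, and *Alb* 45.8% and 36.4%. In cholangiocyte, endothelial and macrophage nuclei *Nr1h4* lay between 6.82 and 41.3 CPM. The 8 HSC markers, by which these nuclei were called, were all present at a sum of 14196 and 10071 CPM. The 820 and 1147 nuclei had median depths of 1778.5 and 1414 UMIs. After thinning to 1000 UMIs, 26.1% and 24.1% of HSC nuclei held an *Nr1h4* UMI, above the 16.8% and 13.3% of hepatocytes. The ratio of HKO over Flox in HSCs was 0.823 (0.721–0.938), beside 0.830 in hepatocytes. With doublets kept, *Nr1h4* in HSCs was at 274 and 238 CPM.

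*Fgfr4* was at 53.9 CPM (27.8–94.1) in cholangiocyte nuclei of Flox, from 12 UMIs, and at 79.6 CPM (59.5–104) in those of HKO, from 52 UMIs. These levels were 2.15 (1.11–3.78) and 2.86 (2.12–3.79) times those of hepatocytes. In HSC and endothelial nuclei *Fgfr4* was at 1.28 to 7.02 CPM. Cholangiocyte nuclei thus carried the receptor transcript at a level above that of hepatocytes in both libraries.

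*Cyp27a1* was at 148 CPM (127–172) in macrophage nuclei of Flox and 112 CPM (97.2–128) in those of HKO. In HSCs it was at 143 CPM (124–162) and 65.5 CPM (54.0–78.8). These levels were 27.4% and 26.6% of the hepatocyte level in macrophages and 26.3% and 15.6% in HSCs, below the 47.0% and 39.7% and the 45.8% and 36.4% of *Alb* in the same types. They were above the 2.79% and 4.43% of *Cyp7a1* in macrophages and its 3.71% and 4.06% in HSCs. Macrophages held 168 *Cyp27a1* and 18 *Cyp7a1* UMIs in Flox and 213 and 94 in HKO, where hepatocytes held 24978 and 26218 in Flox and 11588 and 30747 in HKO. HSCs held 223 and 33 in Flox and 113 and 78 in HKO. The part of free RNA in these values was not tested. The values moved with the processing. With doublets kept, *Cyp27a1* was at 204 and 143 CPM in macrophages and at 216 and 111 CPM in HSCs. With types told by clusters it was at 201 CPM in the HKO cluster named macrophage. That cluster held only 146 nuclei, with the proliferation gene *Top2a* among its leading genes, and a larger HKO cluster with macrophage markers stayed unnamed.

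The 8 genes other than *Nr1h4* and *Fgfr4* had their highest level in hepatocytes among the types of at least 100 nuclei. *Cyp7a1* was at 4.49 to 70.0 CPM in cholangiocyte, endothelial, HSC and macrophage nuclei of Flox and at 29.1 to 70.2 CPM in those of HKO. *Slc10a1* was at 4.49 to 23.3 and 7.54 to 9.97 CPM, and *Abcb11* at 4.41 to 14.2 and 5.80 to 13.3 CPM. *Alb* in the same types was at 960 to 2248 CPM in Flox and 600 to 1030 CPM in HKO. As a share of the hepatocyte level *Cyp27a1*, *Cyp7a1*, *Slc10a1* and *Abcb11* lay below *Alb* in each of these types. None of these values was read as expression there or as its absence.

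**Figure D5:**
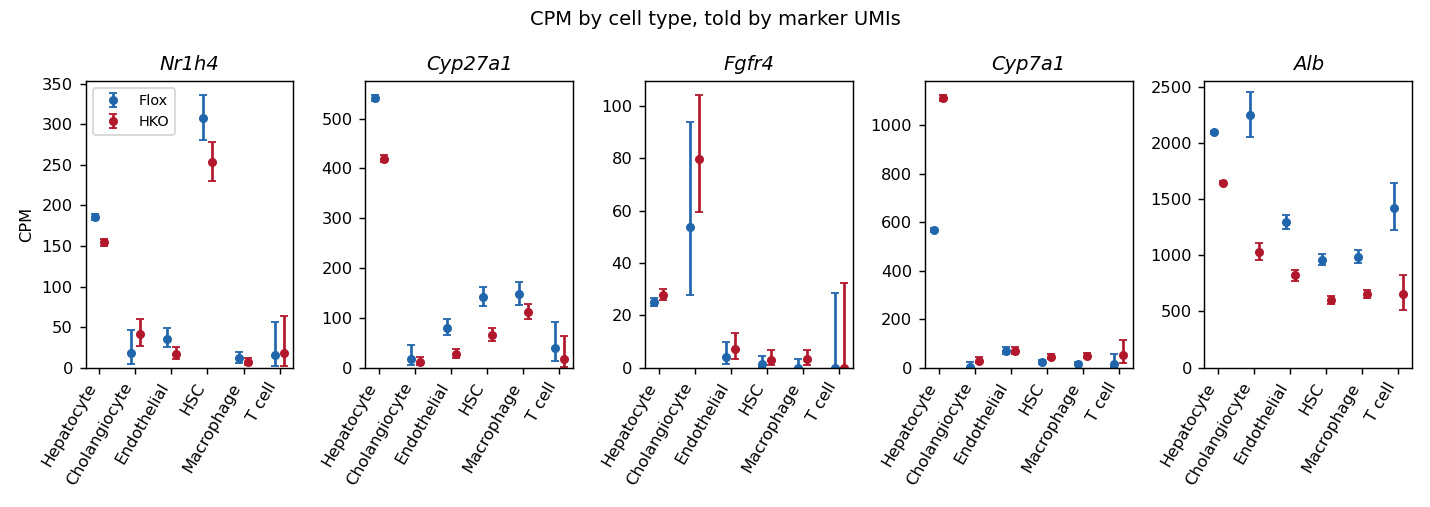
CPM by cell type in both libraries for *Nr1h4*, *Cyp27a1*, *Fgfr4* and *Cyp7a1*, with *Alb* as a rough measure of free hepatocyte RNA and exact Poisson 95% intervals. *Nr1h4* is highest in HSC nuclei (308 and 253 CPM) and *Fgfr4* in cholangiocyte nuclei (53.9 and 79.6 CPM), while *Cyp7a1* is highest in hepatocytes.

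A wider list of 44 bile acid genes placed the 10 in their pathway. Of these, 37 had at least 200 UMIs in hepatocytes, 4 were at least 1.5-fold higher in HKO, 5 at least 1.5-fold lower and 28 in between, with a median log2 ratio of 0.02. With free RNA subtracted, 7 were at least 1.5-fold higher. Against the 6.59% and 8.20% of all genes, that is 4 and 5 of 37. Among 15 measured genes of synthesis and conjugation, 2 were higher and 4 lower. The lower ones were *Hsd3b7*, which acts after CYP7A1 (1159 and 497 CPM, ratio 0.428), the peroxisomal side chain oxidase *Acox2* (148 and 84.7 CPM, 0.571), the bile acid-CoA ligase *Slc27a5* (188 and 84.7 CPM, 0.450) and the acyl-CoA synthetase *Slc27a2* (2246 and 1423 CPM, 0.633). The higher ones were the oxysterol hydroxylase *Cyp39a1* (3.29 and 10.3 CPM, 3.12) and the cholesterol 24-hydroxylase *Cyp46a1* (6.55 and 12.0 CPM, 1.84), both at low levels.

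Of the 5 uptake genes, *Slco1a1* was at 327 CPM in Flox and 44.2 CPM in HKO, a ratio of 0.135 (0.127–0.143), and *Slco1a4* at 53.9 and 304 CPM, a ratio of 5.65 (5.40–5.91). These organic anion transporters are close paralogs, and how reads shared between them were counted was not tested. Of 6 measured genes of efflux and bile formation, 0 passed 1.5-fold. Of 11 measured sensors and regulators 1 did, *Onecut1*, encoding the hepatocyte factor HNF6, at 79.7 CPM in Flox and 202 CPM in HKO, a ratio of 2.53 (2.43–2.64). Synthesis and uptake genes thus differed in both directions, and the 6 export genes with at least 200 UMIs stayed within 1.5-fold. The exporter gene *Abcc4*, with 18 UMIs in Flox and 149 UMIs in HKO hepatocytes, fell below that minimum and is described under the other observations.

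For each gene, the genes of most similar profile over the 5 bins of both libraries (log2 CPM centred within library, 10 points, 9691 candidate genes) were listed as a description. *Cyp7a1* was most like *Enpp1* (Pearson r 0.983), *Rab43* (0.982) and *Dancr* (0.979). *Cyp27a1* was most like *Cyp2a5* (0.993), *Nr1i3* (0.992) and *Hsd3b7* (0.991), and *Slco1b2* like *Pdilt* (0.997), *Cyp2a22* (0.996) and *Ahr* (0.996). *Fgfr4*, of the opposite gradient, was most like the haemopexin gene *Hpx* (0.990), *Mir99ahg* (0.987) and *B3galt1* (0.985). *Cyp8b1* was most like *Exd2* (0.961), *Cyp7b1* like *Sult2a8* (0.984), *Slc10a1* like *Pla2g15* (0.978), *Abcb11* like *Rnf170* (0.949), *Nr0b2* like *Ppme1* (0.948) and *Nr1h4* like *Fam210b* (0.929). Among the 10 genes, the closest pair was *Cyp27a1* and *Slco1b2* (0.985), and the most opposed were *Cyp27a1* and *Fgfr4* (−0.945). The points share 2 libraries and the ranking by zonation markers.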

How the data were processed

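Expression was measured by 10x 3′ snRNA-seq in 2 libraries. The authors deposited raw UMI counts per gene and barcode, made with Cell Ranger 8.0.1 on GRCm38 with intronic reads left out by the study's methods, so unspliced nuclear RNA is largely uncounted. The smallest barcode held 500 UMIs.

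Barcodes with at least 300 detected genes were kept, and 701 (7.49%) and 920 (8.58%) doublets were removed with Scrublet in scanpy 1.11.5. A hepatocyte had at least 0.2% of UMIs, 5 UMIs and 3 genes from 8 markers, and no call for another type (at least 0.1%, 2 UMIs and 2 markers). Nuclei of several types (210 and 236) or none (140 and 712) were left out. The 0.2% was set after the data were seen. In HKO 130 nuclei of no type lay between 0.15% and 0.2%, against 16 in Flox. Next to the zone 3 limit, 50 and 34 nuclei lay between 0.08% and 0.1% and 25 and 28 between 0.1% and 0.12%.

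UMIs of all nuclei were summed per library, type and zone. CPM carry exact Poisson intervals, ratios exact conditional binomial intervals, and log2 ratios a pseudocount of 1 CPM. The intervals and the thinning were checked on simulated Poisson counts. These hold no spread between nuclei, pools or libraries, so the check does not cover such spread. Free RNA is included unless stated. The named genes are the 10 members, genes of the wider list at least 1.5-fold apart, and, for likeness, the 3 closest profiles (fewer printed for some). Members, lists, zone rule and motifs were chosen with earlier results of these data known. The alternatives tried were other filters, scaling by edgeR 4.0.16 (TMM), thinning, clusters, free RNA subtraction, zone limits and pseudocounts.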

Additional observations from a re-analysis of the deposited data

Results flagged for a closer look

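The ratio of HKO over Flox lay on opposite sides of 1 between zonation bins for 2 genes, with counting intervals that did not hold 1 on either side. *Cyp27a1* had a ratio of 1.23 in bin 1 and 0.663 in bin 4, and *Fgfr4* one of 0.806 in bin 2 and 1.60 in bin 4. The difference between bins was not tested, since each bin has 1 sample per genotype. Bins were ranked within each library, and whether they hold like zones in both was not tested. *Fgfr4* rests on 127 to 364 UMIs per bin and library in these bins.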

How the results depend on the processing

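Over 9 planned and 4 added alternatives the library ratios of *Cyp7a1*, *Cyp8b1*, *Cyp7b1*, *Nr0b2*, *Slc10a1*, *Slco1b2*, *Abcb11* and *Nr1h4* kept their direction, and of 130 single values 95 stayed within the counting interval, 32 moved and 3 reversed. The 4 added alternatives (a stricter hepatocyte limit of 0.3%, nuclei of 5000 to 8000 UMIs, equal weight of 5 bins, another naming of clusters) were chosen after seeing the data. *Fgfr4* reversed among nuclei of 5000 to 8000 UMIs (log2 ratio −0.19). When clusters were named against all other nuclei, which are mostly hepatocytes, 2 of 3 Flox clusters with hepatocyte markers went unnamed, *Cyp27a1* (0.63) and *Fgfr4* (−0.44) reversed, 3 genes were at least 1.5-fold higher and 7 of the wider list were, so clusters were named against the median cluster. Subtracting free RNA moved the median log2 ratio of the 10 genes to −0.22, the wider list's higher count to 7 and the lower count of the 10 genes from 4 to 3 (*Slc10a1*, −0.53), as did a pseudocount of 10 CPM (−0.56). It moved the median of all genes to 0.08.

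In zone 3, 121 of 140 values stayed within the counting interval and 3 reversed in a random draw of 1000 UMIs per nucleus. These were *Cyp8b1* in Flox (0.0045) and *Cyp7b1* (−0.13) and *Nr1h4* (0.14) in HKO. In another draw the shares of nuclei with a UMI did not reverse for *Cyp7b1* and *Nr1h4* in HKO. The count of genes at least 1.5-fold lower in zone 3 went to 0 in Flox with a pseudocount of 10 CPM and to 1 in HKO at a zone share of 0.2%. In the cluster naming the Flox macrophage cluster stayed unnamed, as did an HKO cluster of 1736 nuclei with 8 macrophage markers raised. No paired analysis was possible because each genotype had 1 library, and for the same reason no replicate could be left out. The smallest counts (*Cyp7b1*, *Cyp8b1*, *Fgfr4* in zone 3, *Fgfr4* in Flox cholangiocytes) limit the precision.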

Other observations

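Other bile acid genes of the wider list had a higher CPM in a non-parenchymal type than in hepatocytes. Of those with at least 20 UMIs in the type and a lower interval bound above 1.5 in both libraries, *Nr1h3*, encoding the oxysterol receptor LXR-alpha, was at 339 CPM in Flox and 259 CPM in HKO macrophages, 6.02 (5.39–6.70) and 4.38 (3.95–4.84) times the hepatocyte level. *Onecut1* was at 749 and 857 CPM in cholangiocytes, 9.40 (8.0–11) and 4.25 (3.89–4.64) times the hepatocyte level. The phospholipid flippase gene *Atp8b1* was at 74.1 and 71.3 CPM in HSCs, 1.84 (1.51–2.22) and 1.97 (1.62–2.37) times the hepatocyte level. *Abcc4*, described below, met the same rule in endothelial and macrophage nuclei. The FXR paralog gene *Nr1h5*, added after its values were seen, was at 869 CPM in Flox and 636 CPM in HKO HSCs and at 0.477 and 0.471 CPM in hepatocytes, so the stellate nuclei carried transcripts of both FXR genes.

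The basolateral exporter gene *Abcc4* had too few UMIs for the count of the wider list. It was at 0.390 CPM in Flox hepatocytes, from 18 UMIs, and at 5.40 CPM in HKO hepatocytes, from 149 UMIs, a ratio of 13.8 (8.46–24.0). In endothelial nuclei it was at 65.8 and 45.2 CPM. This gene was chosen after its values were seen.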
